A study of Mus musculus with 5 samples.

Results

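The genes described here encode the Hsp, DnaJ and Cct molecular chaperones of mouse embryonic stem cells, measured after siRNA transfection against Dhx30 or Tfam. They were taken by a name rule, which was chosen with earlier results of these data known. The rule took every deposited gene name starting with the Hsp70, Hsp90, Hsp60, Hsp10, Hsp110 or small Hsp stems, with Dnaja, Dnajb or Dnajc, or with Cct and a digit. Dnajc19 and the pseudogene Hspd1-ps3 were left out. This gave 54 members among 12930 genes, all with a value in every siRNA library, and they were put apart as 6 mitochondrial, 7 endoplasmic reticulum (ER), 7 CCT chaperonin, 13 cytosolic or nuclear Hsp, 16 cytosolic or nuclear DnaJ and 5 other membrane or vesicle DnaJ genes. The classes follow textbook knowledge of the proteins. Of 82 chaperone genes in the class lists, 28 were not found among the names in the table, Hspd1, Hspa1a, Hspa1b, Hspb1, Dnajb1, Dnajb9, Dnajb11 and Dnajc3 among them.

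The series holds 5 RNA-seq libraries of OG2 cells, mouse embryonic stem cells of the strain labelled (CBA/CaJxC57BL/6J) with 129Sv/Jae: 2 labelled siDhx30, 2 labelled siTfam and 1 labelled NC, the negative control. All groups, NC included, share 1 protocol in the labels: 24 h in N2B27 medium with LIF and the inhibitors PD0325901 and CHIR99021, which holds naive pluripotency, then siRNA at 50 nM and 36 h in differentiation medium with bFGF and Activin A. DHX30 is an RNA helicase of mitochondrial RNA granules and TFAM coats mitochondrial DNA and starts its transcription. The deposited table gives 1 log2 ratio per gene and siRNA library, and no level, count or p-value, so the depth behind a ratio is unknown and levels of different genes cannot be compared. Nothing in the labels says that the replicates came from separate cultures, so p-values reflect only how far these libraries differ, which may be technical.

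Values are given below as log2 ratios of an siRNA library over NC, where 0 is the NC level, or as the difference of 2 such ratios. The table states neither the direction nor the denominator. All 1574 values of the 842 genes that lack a value in some library were negative as deposited and 0 were positive, which fits NC over siRNA if a gene was kept when either library of a pair reached a minimum. Each deposited sign was reversed here, and all directions given depend on this inference. With it, Dhx30 lay at -0.40 and -0.20 in the siDhx30 libraries (limma mean -0.30, SE 0.20, adjusted p = 0.998), and Tfam at -0.28 and -0.017 in the siTfam libraries (mean -0.15, SE 0.22, adjusted p = 0.987). A lower target transcript was thus not established for either siRNA. Of 12 stem cell markers 4 were found among the gene names, Esrrb, Dppa4, Sall4 and Tfcp2l1, and without levels the cell type could not be checked further. Their median ratios lay at 0.16 and 0.025 in siDhx30, with 0.15 and 0.13 in siTfam. The siTfam replicates differed widely for Tfcp2l1 (-1.14 and 1.71), Esrrb (0.85 and 0.020) and Sall4 (0.037 and -0.54). For Dppa4 they were close, at 0.26 and 0.24. Median ratios of primitive endoderm markers (5 complete genes) lay at -0.19 and -0.021 in siDhx30, with -0.44 and -0.96 in siTfam. For 4 fibroblast markers they lay at 0.30 and 0.12 in siDhx30, with 0.44 and -0.014 in siTfam. Among these 4 genes, Col1a2 lay at -0.87 and -0.62 in siDhx30, with -0.73 and 0.083 in siTfam. Thy1, Fn1 and Vim were above NC in both siDhx30 libraries and in siTfam replicate 1. The part of such cells in the results was not tested, and fewer cells of a type cannot be told apart from less RNA per cell in these bulk libraries.

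Chaperones bind unfolded proteins and help them to fold, to cross membranes or to be degraded. Hsp70 proteins work in cycles of ATP hydrolysis that J-domain proteins of the DnaJ family start and nucleotide exchange factors reset. Hsp90 acts later on signalling proteins, and the ring-shaped chaperonins, Hsp60 in mitochondria and CCT in the cytosol, enclose their substrates. Each compartment has its own transcriptional response: heat shock factors raise cytosolic chaperones, the unfolded protein response raises those of the ER, and mitochondrial stress is known to raise Hsp60, Hsp10 and mitochondrial Hsp70 in mammalian cells.

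No chaperone gene passed the test in either siRNA against NC, and most lay close to the NC level. Both comparisons share the 1 NC library, so values of a gene across the siRNA libraries are not independent readings against NC. The limma test, adjusted by Benjamini-Hochberg over 12088 complete genes, called 0 of 54 members in siDhx30 against NC and 0 in siTfam against NC, with a background of 0% of all genes in both. At an unadjusted p under 0.05 it called 2 of 54 members in siDhx30, where 5.04% of all genes were called, and 2 of 54 in siTfam, where 6.11% were. Both times these were Dnajb13 and Dnajc22, above NC, a direction in which 2.56% of all genes were called in siDhx30 and 3.04% in siTfam. Below NC there were 0 members, where 2.47% of all genes were called in siDhx30 and 3.08% in siTfam. The median log2 ratio over the 54 members was -0.019 in siDhx30 and 0.023 in siTfam, beside -0.012 and -0.020 over all complete genes. In siDhx30, 17 members were above NC in both libraries, where 32.1% of all genes were, and 18 were below NC in both, where 34.9% were. In siTfam the counts were 21 above, against 32% of all genes, and 15 below, against 34.4%. As shares of the 54 members these counts are 31.5%, 33.3%, 38.9% and 27.8%, near the background throughout.

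**Figure D1:**
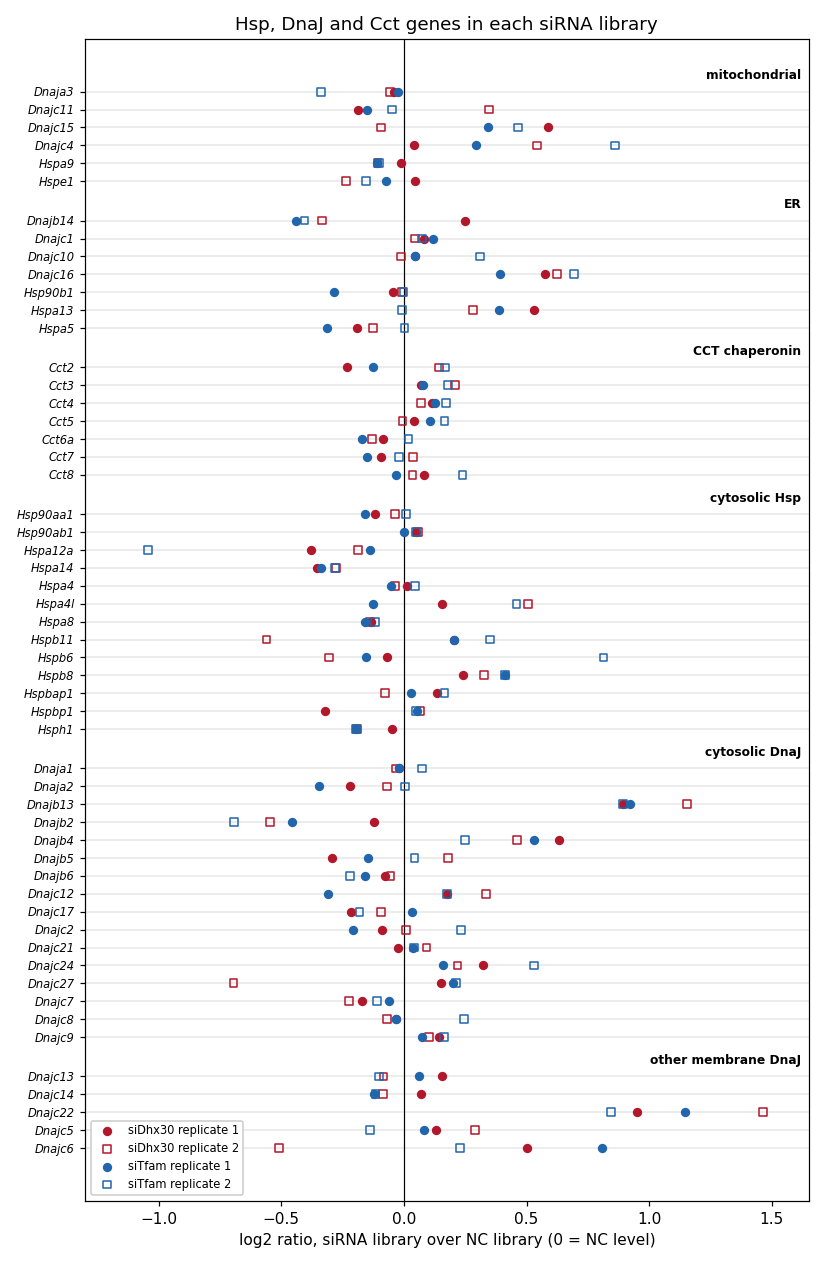
Log2 ratio over NC (horizontal axis) of the 54 chaperone genes, 1 row each, by class. Circles are replicate 1 and squares replicate 2, red for siDhx30 and blue for siTfam; most values lie within 0.5 of the NC level, and Dnajc22 and Dnajb13 stand to the right in all 4 libraries.

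The precision of the fit sets what could be seen. The median SE of a member was 0.21 against NC. In siDhx30 against NC, 39 of 54 members (72.2%) had a 95% interval within log2 -1 to 1, a halving to a doubling. Of all genes 54.1% did. In siTfam against NC the count was 39 of 54 (72.2%), where 53.1% of all genes had such an interval. The interval reached a doubling for 11 members (20.4%) in siDhx30, where 29.9% of all genes reached it. In siTfam it did for 12 (22.2%), where 29.7% of all genes reached it. Changes of a single chaperone within its interval are compatible with these libraries, although no member was called.

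**Figure D2:**
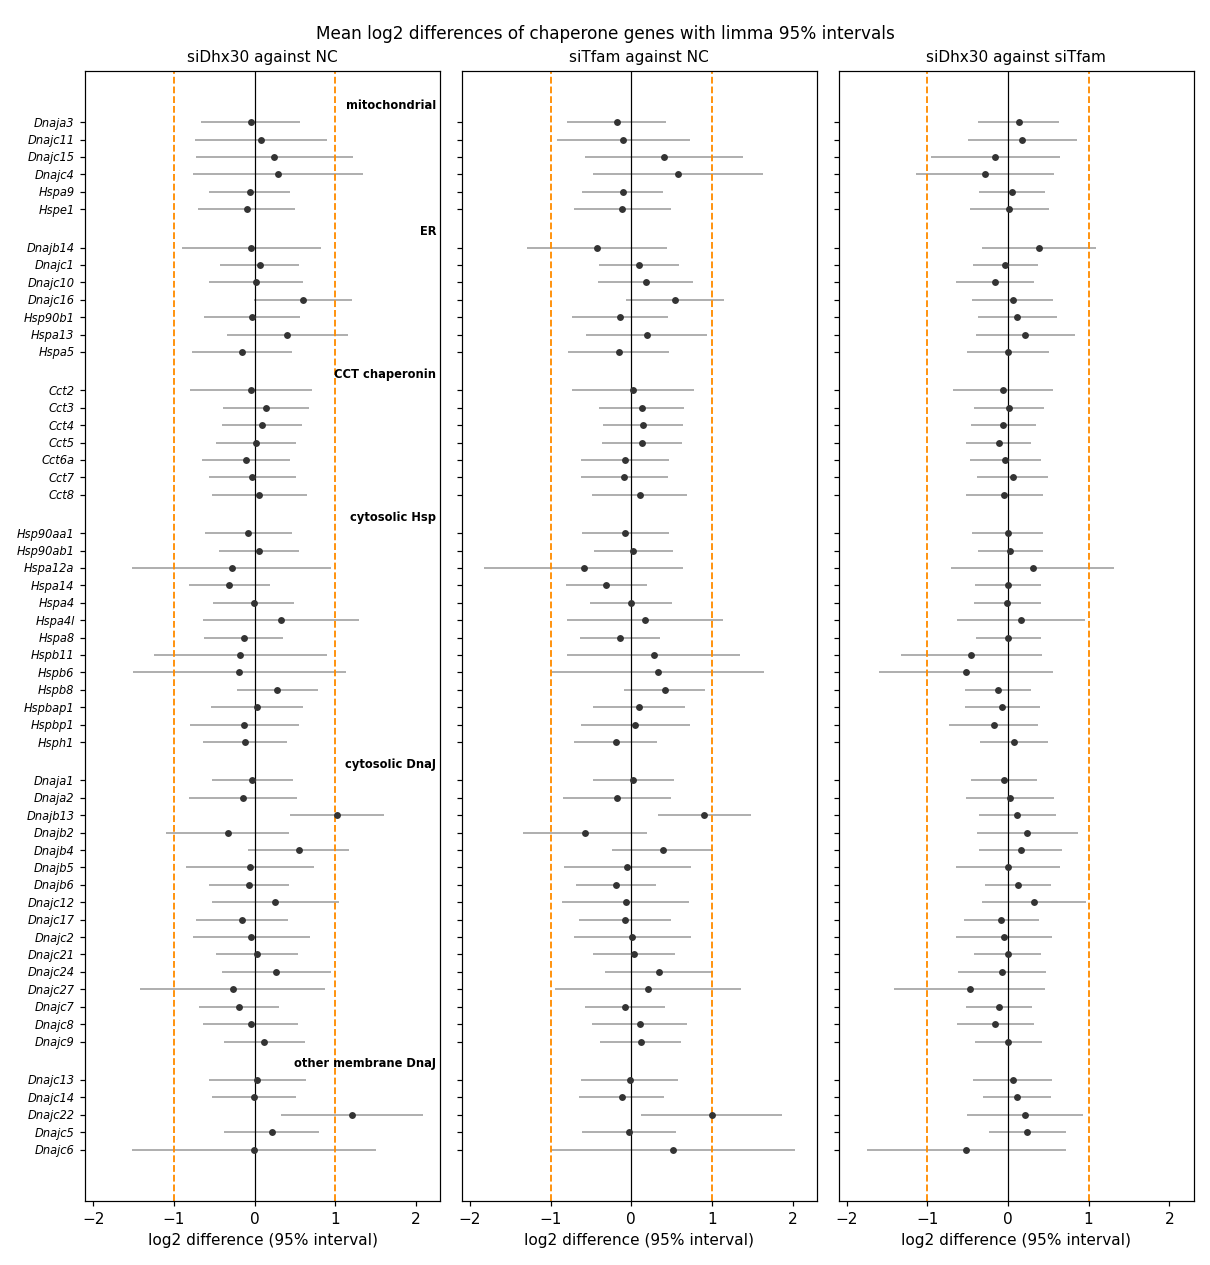
Mean log2 difference of each chaperone gene with its limma 95% interval, 1 panel per comparison (each siRNA against NC, then the siRNAs directly), with dashed lines at -1 and 1. All 7 CCT genes lie between the dashed lines in each panel, while intervals of Dnajc6, Hspb6 and Hspa12a are among the widest.

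The 6 mitochondrial members were centred near NC, and the matrix chaperone genes Hspe1, Hspa9 and Dnaja3 lay at or below NC in nearly every library. Hspe1 encodes Hsp10, the lid of the Hsp60 chaperonin (ENSMUSG00000073676.4; GRCm38 chromosome 1, 55088132 to 55091307, plus strand). The gene of Hsp60 itself, Hspd1, is one of those without a row. The 2 genes lie head to head, and their GENCODE M21 gene bodies share 112 bases on opposite strands. The RefSeq window from 250 bases before to 50 after the Hspe1 start site is shown because 1 stretch of it holds 3 overlapping matches to heat shock element letters, in capitals.

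Hspe1, GRCm38.p6, chr1:55087898-55088197, plus strand: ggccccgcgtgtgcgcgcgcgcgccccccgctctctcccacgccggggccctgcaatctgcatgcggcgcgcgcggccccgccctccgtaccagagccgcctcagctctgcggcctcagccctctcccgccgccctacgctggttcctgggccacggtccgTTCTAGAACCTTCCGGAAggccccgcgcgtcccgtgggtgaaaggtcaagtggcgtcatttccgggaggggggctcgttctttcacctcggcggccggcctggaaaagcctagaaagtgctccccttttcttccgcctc

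Hspe1 lay at 0.045 and -0.24 in siDhx30, with -0.071 and -0.15 in siTfam. Only siDhx30 replicate 1 was above NC, and the siDhx30 and siTfam values overlapped. The mean was -0.096 in siDhx30 (SE 0.22, limma adjusted p = 0.998) and -0.11 in siTfam (SE 0.22, adjusted p = 0.990), or 93.6% and 92.5% of the NC level, with 95% intervals up to 142% and 140.4%. GENCODE names 6 Hspe1 pseudogenes, and counting could have split reads between near-identical copies. Over all members, 4 have a named pseudogene, Hspa9 and Dnaja1 among them. Another coding gene overlaps 15 members, Hspb6, Hspa12a, Dnaja1, Dnajb6 and Dnajc7 among them. Hspa9, or mortalin, is the matrix Hsp70 that also pulls imported proteins inward (ENSMUSG00000024359.10; GRCm38 chromosome 18, 34937414 to 34954357, minus strand). It lay at -0.013 and -0.11 in siDhx30, with -0.11 and -0.10 in siTfam. Hspa9 was below NC in all 4 libraries by a narrow margin, at 95.9% of NC in siDhx30 (interval 67.7% to 135.8%) and 92.9% in siTfam (65.6% to 131.5%). Dnaja3, the J-protein partner of Hspa9, lay at -0.041 and -0.056 in siDhx30, with -0.026 and -0.34 in siTfam. The siTfam replicates thus differed more from each other than siTfam did from NC on average (mean -0.18, SE 0.22, limma adjusted p = 0.987). The Dnaja3 gene body overlaps Coro7 and Vasn.

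The other 3 mitochondrial members are also J-proteins, and their replicates spread more widely. Dnajc15, linked to the import motor, lay at 0.59 and -0.094 in siDhx30, with 0.34 and 0.47 in siTfam. Dnajc4 lay at 0.041 and 0.54 in siDhx30, with 0.29 and 0.86 in siTfam, above NC in every library. Dnajc11, a partner of the cristae-organising MICOS complex, lay at -0.19 and 0.35 in siDhx30, with -0.15 and -0.049 in siTfam. None of the 3 passed, and the siDhx30 and siTfam ranges overlapped for each. The class median was 0.015 in siDhx30 and -0.10 in siTfam. In siTfam, 4 of 6 members were below NC in both libraries, where 34.4% of all genes were, and in siDhx30 2 of 6 were, where 34.9% were. Hspd1-ps3, a pseudogene left out by the name rule, lay at 1.61 and -0.035 in siDhx30, with 1.12 and 1.04 in siTfam. The excluded Dnajc19 lay at 0.18 and -0.19 in siDhx30, with 0.21 and 0.25 in siTfam.

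In the ER class, the lumenal chaperone genes Hspa5 and Hsp90b1 stayed near NC, whereas Dnajc16 and Hspa13 had higher mean ratios that did not pass. Hspa5 encodes BiP, the ER Hsp70 and a standard marker of the unfolded protein response (ENSMUSG00000026864.13; GRCm38 chromosome 2, 34771970 to 34777547, plus strand). Hsp90b1 encodes GRP94, the ER Hsp90 (ENSMUSG00000020048.13; GRCm38 chromosome 10, 86690209 to 86705509, minus strand). Their RefSeq promoter windows are shown because only they, of the 43 members with a window, held the letters of the ER stress element, in capitals. Stress-activated ATF6 is known to use this element with the factor NF-Y.

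Hspa5, GRCm38.p6, chr2:34771840-34772139, plus strand: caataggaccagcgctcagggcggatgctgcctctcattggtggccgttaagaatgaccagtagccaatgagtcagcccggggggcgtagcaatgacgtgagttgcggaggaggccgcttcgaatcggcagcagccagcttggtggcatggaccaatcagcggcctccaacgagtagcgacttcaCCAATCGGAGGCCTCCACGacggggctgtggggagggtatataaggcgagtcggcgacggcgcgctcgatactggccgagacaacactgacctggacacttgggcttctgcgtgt
Hsp90b1, GRCm38.p6, chr10:86705395-86705694, minus strand: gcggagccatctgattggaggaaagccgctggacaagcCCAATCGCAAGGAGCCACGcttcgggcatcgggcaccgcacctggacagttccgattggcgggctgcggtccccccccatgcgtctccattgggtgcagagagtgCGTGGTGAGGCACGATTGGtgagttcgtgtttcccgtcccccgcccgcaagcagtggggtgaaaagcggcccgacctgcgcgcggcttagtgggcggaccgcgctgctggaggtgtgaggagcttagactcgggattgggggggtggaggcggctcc

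Hspa5 lay at -0.19 and -0.13 in siDhx30, with -0.31 and 0.0018 in siTfam. The 2 siDhx30 values lay between the 2 siTfam values. The mean was -0.16 in siDhx30 (SE 0.22, limma adjusted p = 0.998) and -0.16 in siTfam (SE 0.22, adjusted p = 0.987), 89.6% and 89.7% of NC, and the 95% intervals ended at 137.9% and 138.2%. Hsp90b1 lay at -0.046 and -0.0084 in siDhx30, with -0.28 and -0.0021 in siTfam. For both genes siTfam replicate 1 was the lowest library and siTfam replicate 2 was at the NC level. Dnajc10, an ER disulfide reductase with a J domain, lay at 0.044 and -0.012 in siDhx30, with 0.045 and 0.31 in siTfam. Dnajc1, a J-protein of the ER membrane, was above NC throughout, at 0.082 and 0.045 in siDhx30, with 0.12 and 0.073 in siTfam.

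Dnajc16, a J-protein of the ER membrane (ENSMUSG00000040697.10; GRCm38 chromosome 4, 141760189 to 141790931, minus strand), lay at 0.58 and 0.63 in siDhx30, with 0.39 and 0.69 in siTfam. All 4 values were above NC, which they share as denominator, and the siDhx30 pair sat inside the siTfam pair. The mean was 0.60 in siDhx30 (SE 0.22, unadjusted p = 0.0526, limma adjusted p = 0.992) and 0.54 in siTfam (SE 0.22, unadjusted p = 0.0689, limma adjusted p = 0.847). Hspa13, an Hsp70 relative of microsomes, lay at 0.53 and 0.28 in siDhx30, with 0.39 and -0.0085 in siTfam. Dnajb14, an ER membrane J-protein used in degradation of membrane proteins, lay at 0.25 and -0.33 in siDhx30, with -0.44 and -0.41 in siTfam. Its siDhx30 replicates lay on opposite sides of NC. The ER class median was 0.016 in siDhx30 and 0.095 in siTfam.

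The CCT genes, whose products form the 8-subunit cytosolic ring that folds actin and tubulin, kept the narrowest range of all classes around NC. The 7 subunits under the name rule were Cct2, Cct3, Cct4, Cct5, Cct6a, Cct7 and Cct8. The remaining subunit, Tcp1, falls outside that rule and lay at 0.0023 and 0.099 in siDhx30, with -0.018 and 0.11 in siTfam. Mean log2 ratios of the 7 members ran from -0.11 to 0.14 in siDhx30 and from -0.085 to 0.15 in siTfam. Cct2 (ENSMUSG00000034024.8; GRCm38 chromosome 10, 117051001 to 117063814, minus strand) lay at -0.23 and 0.14 in siDhx30, with -0.13 and 0.17 in siTfam. Replicate 1 was below and replicate 2 above NC for both siRNAs, so the replicates disagreed in sign. Cct4 was above NC in every library, at 0.11 and 0.068 in siDhx30, with 0.13 and 0.17 in siTfam. Cct3 was likewise above NC, at 0.069 and 0.21 in siDhx30, with 0.078 and 0.18 in siTfam. Cct8 lay at 0.080 and 0.035 in siDhx30, with -0.032 and 0.24 in siTfam. Cct5 values ran from -0.0060 to 0.17 over the 4 libraries, those of Cct6a from -0.17 to 0.019 and those of Cct7 from -0.15 to 0.038. The class median by library was 0.041 and 0.038 in siDhx30, and -0.032 and 0.17 in siTfam. The intervals against NC of all 7 stayed within log2 -1 to 1 in both comparisons. Cct3 has a named pseudogene, and Cct6a, Cct7 and Cct8 overlap a coding gene on the opposite strand.

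**Figure D3:**
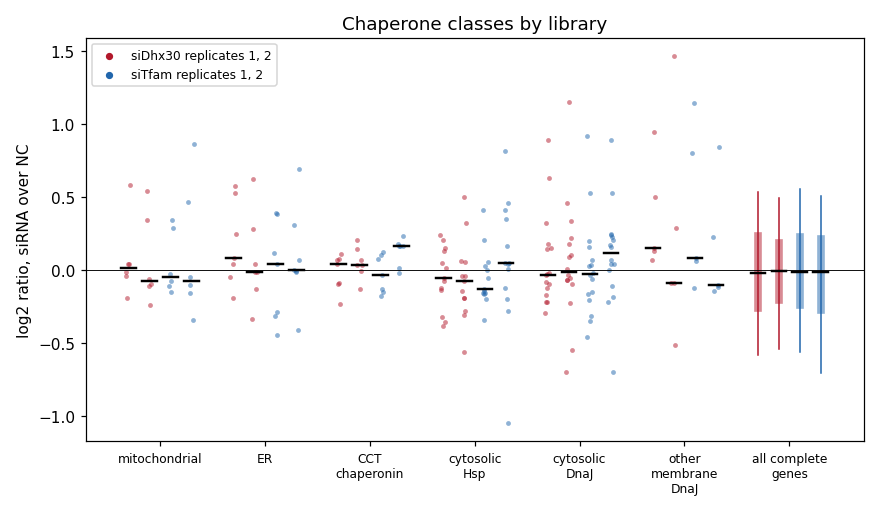
Log2 ratio over NC of chaperone genes by class, with siDhx30 replicates 1 and 2 (red) and siTfam replicates 1 and 2 (blue) from left to right within each class. Points are genes and black bars class medians; for all complete genes the thick bar spans the quartiles and the thin line the 10th to 90th percentile, and the class medians stay between -0.12 and 0.17.

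Among cytosolic Hsp genes, Hspa8 and both Hsp90 genes lay close to NC in each library, Hspa14 and Hspa12a were below NC in all 4, and Hspb8 was above NC in all 4. The class median was -0.12 in siDhx30 and 0.026 in siTfam. Hspa8 encodes Hsc70, the main housekeeping Hsp70 (ENSMUSG00000015656.17; GRCm38 chromosome 9, 40800984 to 40810087, plus strand). It lay at -0.14 and -0.14 in siDhx30, with -0.16 and -0.12 in siTfam. All 4 values were below NC and nearly equal, with a residual SD of 0.021 against a median of 0.20 over all genes. The mean was -0.14 in siDhx30 and -0.14 in siTfam (SE 0.18 each, limma adjusted p = 0.998 and 0.987). Because every ratio shares the NC library, 4 like values are not independent readings of a change.

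Hsp90ab1, the constitutive Hsp90, lay at 0.048 and 0.057 in siDhx30, with 0.00053 and 0.051 in siTfam. Hsp90aa1, the stress-inducible Hsp90, lay at -0.12 and -0.035 in siDhx30, with -0.16 and 0.0090 in siTfam. Hspa4, an Hsp110-type exchange factor, lay at 0.013 and -0.036 in siDhx30, with -0.053 and 0.045 in siTfam. Hsp90ab1 was slightly above NC in all 4 libraries, the values of the other two lay on both sides of NC, and none of the 3 genes passed the limma test. The classical heat shock genes Hspa1a, Hspa1b, Hspb1 and Dnajb1 were among those without a row, so the inducible response could be read only from other members, such as Hsph1.

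Hsph1 encodes Hsp110, a heat-inducible exchange factor of Hsp70 (ENSMUSG00000029657.15; GRCm38 chromosome 5, 149614287 to 149636376, minus strand). Of its 2 RefSeq windows the one mapped in the plot of element positions is shown, because it holds 3 matches to heat shock element letters, in capitals, 2 of them overlapping.

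Hsph1, GRCm38.p6, chr5:149636266-149636565, minus strand: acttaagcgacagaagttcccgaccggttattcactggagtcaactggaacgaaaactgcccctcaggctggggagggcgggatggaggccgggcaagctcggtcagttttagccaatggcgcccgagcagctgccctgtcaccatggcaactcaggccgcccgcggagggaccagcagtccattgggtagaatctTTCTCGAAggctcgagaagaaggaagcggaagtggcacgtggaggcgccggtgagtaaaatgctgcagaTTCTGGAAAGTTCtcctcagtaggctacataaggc

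Hsph1 lay at -0.051 and -0.19 in siDhx30, with -0.19 and -0.20 in siTfam. All 4 values were below NC. Its mean was 91.9% of NC in siDhx30 (95% interval 64.2% to 131.6%) and 87.4% in siTfam (61% to 125%), and limma gave adjusted p of 0.998 and 0.984. A doubling of this heat-inducible transcript thus lay outside both intervals. Of the other members with heat shock element letters, Dnajb6 was also below NC in all 4 libraries. Dnajb4 and Hspb8 were instead above NC in all 4, and none of these members passed. The Dnajb4 interval ended at 225.9% of NC in siDhx30 and 202.7% in siTfam.

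Hspa14, a ribosome-associated Hsp70, was the lowest cytosolic Hsp with tight replicates (ENSMUSG00000109865.1; GRCm38 chromosome 2, 3488850 to 3512814, minus strand). Its window is shown because it was the 1 member window with the letters TGATGNAA, a core of the CEBP-ATF element used by ATF4, in capitals.

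Hspa14, GRCm38.p6, chr2:3512765-3513064, minus strand: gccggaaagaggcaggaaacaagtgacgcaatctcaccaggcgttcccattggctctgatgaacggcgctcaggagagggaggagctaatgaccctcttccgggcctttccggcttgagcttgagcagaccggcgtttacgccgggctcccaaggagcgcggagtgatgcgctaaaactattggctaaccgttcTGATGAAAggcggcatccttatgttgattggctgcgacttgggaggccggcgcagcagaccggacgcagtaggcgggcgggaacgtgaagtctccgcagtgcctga

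Hspa14 lay at -0.35 and -0.28 in siDhx30, with -0.34 and -0.28 in siTfam. Every library was about equally below the shared NC library, so these are not independent readings. The mean was -0.32 in siDhx30 (SE 0.18, unadjusted p = 0.156, limma adjusted p = 0.998) and -0.31 in siTfam (SE 0.18, unadjusted p = 0.161, limma adjusted p = 0.933). The GENCODE gene Gm45902 overlaps it on the same strand, so its counts are uncertain.

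The small Hsp genes spread more. Hspb8, an autophagy-linked small Hsp, was above NC in every library, at 0.24 and 0.33 in siDhx30, with 0.41 and 0.41 in siTfam, and did not pass (limma adjusted p = 0.998 in siDhx30 and 0.873 in siTfam). Hspb6, a muscle-associated small Hsp, lay at -0.070 and -0.31 in siDhx30, with -0.16 and 0.81 in siTfam. Hspb11, known as the intraflagellar transport protein IFT25 rather than as a chaperone, lay at 0.21 and -0.56 in siDhx30, with 0.21 and 0.35 in siTfam. For both genes 1 library stood apart, siTfam replicate 2 for Hspb6 and siDhx30 replicate 2 for Hspb11. Hspa12a, a distant Hsp70 relative, was below NC throughout, at -0.38 and -0.19 in siDhx30, with -0.14 and -1.04 in siTfam, with siTfam replicate 2 far below the rest. Hspa4l lay at 0.16 and 0.51 in siDhx30, with -0.12 and 0.46 in siTfam. The co-chaperone Hspbp1 and the Hspb1-binding Hspbap1 ran from -0.32 to 0.067 and from -0.076 to 0.17 over the 4 libraries.

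The 2 members with the highest mean ratios in both siRNAs encode J-proteins, and neither passed the test over all genes. Dnajc22, a membrane J-protein (ENSMUSG00000038009.7; GRCm38 chromosome 15, 99093170 to 99104737, plus strand), lay at 0.95 and 1.47 in siDhx30, with 1.14 and 0.84 in siTfam. Dnajb13, a radial spoke protein of motile cilia and sperm tails (ENSMUSG00000030708.14; GRCm38 chromosome 7, 100501716 to 100514960, minus strand), lay at 0.90 and 1.15 in siDhx30, with 0.92 and 0.89 in siTfam. For both genes all libraries were far above NC, and the siDhx30 and siTfam ranges overlapped. Every ratio shares the 1 NC library, so these like values are not independent readings of a change. Dnajc22 averaged 231% of NC in siDhx30 (95% interval 125.6% to 424.8%, unadjusted p = 0.0190, limma adjusted p = 0.802) and 199.2% in siTfam (108.4% to 366.4%, unadjusted p = 0.0349, limma adjusted p = 0.774). Dnajb13 averaged 203.5% of NC in siDhx30 (136.1% to 304.3%, unadjusted p = 0.00799, limma adjusted p = 0.673) and 187.6% in siTfam (125.4% to 280.5%, unadjusted p = 0.0122, limma adjusted p = 0.676). The Dnajb13 gene body overlaps Ucp2, which lies on the opposite strand and lay at -0.31 and 0.077 in siDhx30, with -0.078 and 0.12 in siTfam. How reads of the shared bases were assigned is not given in the sources used here. With Dnajc16, these were the 3 members above NC by over 0.5 in both siDhx30 libraries, where 4.77% of all genes were. Dnajb13 and Dnajc22 were the 2 such members in siTfam, where 5.34% of all genes were. Below NC by over 0.5 in both libraries there were 0 members for either siRNA, where 5.26% of all genes were in siDhx30 and 5.74% in siTfam.

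Of the general cytosolic J-proteins, Dnaja1, the main Hsc70 partner, lay at -0.021 and -0.032 in siDhx30, with -0.019 and 0.072 in siTfam. Dnaja2, its relative, lay at -0.22 and -0.068 in siDhx30, with -0.35 and 0.0039 in siTfam. Dnajb6, which holds back aggregation of glutamine-rich proteins, was below NC throughout, at -0.078 and -0.055 in siDhx30, with -0.16 and -0.22 in siTfam. Dnajb2, a neuron-enriched J-protein that passes clients to the proteasome, was below NC in all libraries, at -0.12 and -0.55 in siDhx30, with -0.46 and -0.69 in siTfam. Dnajb4 was above NC in all, at 0.63 and 0.46 in siDhx30, with 0.53 and 0.25 in siTfam. None of these passed. Dnajc7, which links Hsp70 to Hsp90, lay at -0.17 and -0.22 in siDhx30, with -0.060 and -0.11 in siTfam. Dnajc9, a histone chaperone, was slightly above NC throughout, at 0.14 and 0.10 in siDhx30, with 0.073 and 0.16 in siTfam. Dnajc24, which acts in making diphthamide, lay at 0.32 and 0.22 in siDhx30, with 0.16 and 0.53 in siTfam. The ribosome-linked Dnajc2 and Dnajc21, the splicing-linked Dnajc8 and Dnajc17, and Dnajb5 had values between -0.29 and 0.24 in every library.

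Dnajc12 and the Rab-like Dnajc27 differed between replicates. Dnajc12 lay at 0.18 and 0.34 in siDhx30, with -0.31 and 0.17 in siTfam. Dnajc27 lay at 0.15 and -0.70 in siDhx30, with 0.20 and 0.21 in siTfam, with siDhx30 replicate 2 alone below NC. Among the vesicle members, Dnajc6, or auxilin, which uncoats clathrin vesicles, spread most of all members, at 0.50 and -0.51 in siDhx30, with 0.81 and 0.23 in siTfam. Dnajc5, the synaptic vesicle cysteine string protein, lay at 0.13 and 0.29 in siDhx30, with 0.082 and -0.14 in siTfam. The endosomal Dnajc13 and the membrane protein Dnajc14 stayed between -0.12 and 0.15 in all libraries.

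The direct comparison of the siRNAs, which does not involve the NC library, had 2 libraries on each side and showed no chaperone gene past the threshold. The limma test called 0 of 54 members after adjustment, beside 0% of all genes. At an unadjusted p under 0.05 it called 0 of 54, where 2.79% of all genes were called (1.29% upward and 1.5% downward), and the smallest unadjusted p of a member was 0.206. The median difference, siDhx30 minus siTfam, was -0.0030 over members and -0.0015 over all genes. Both siDhx30 libraries lay above both siTfam libraries for 6 members, or 11.1%, where 14.7% of all genes did. They lay below for 9, or 16.7%, where 14.3% did. No member was separated by over 0.5 in either direction, a gap that 0.753% of all genes had upward and 0.811% downward.

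Of the 6 higher members, Dnajb14 had the largest mean difference, 0.38 (95% interval -0.32 to 1.09, limma adjusted p = 0.999). It was followed by Dnajc12 at 0.32, Dnajc5 at 0.24, Dnajb6 at 0.12 and Dnajc14 at 0.11. Of the 9 lower members, Dnajc27 had a mean difference of -0.48 (-1.41 to 0.46, limma adjusted p = 0.999), Hspb11 one of -0.46 (-1.33 to 0.42), Dnajc10 -0.16, Dnajc8 -0.16 and Hspb8 -0.13. The Dnajc27 and Hspb11 differences each rested on siDhx30 replicate 2: leaving it out gave -0.052 and -0.073. For Dnajb14 it was 0.67 with siDhx30 replicate 2 left out and 0.090 with replicate 1 left out.

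For the central chaperones of each compartment the siDhx30 to siTfam ratio was near 100%. It was 99.8% for Hspa5 (95% interval 70.2% to 142%) and 103.2% for Hspa9 (77.7% to 137.1%). Hspa8 lay at 100.2% (75.8% to 132.3%), Hsph1 at 105.3% (78.5% to 141%) and Hspe1 at 101.1% (71.9% to 142.2%). A doubling or halving between the siRNAs thus lay outside the interval of each of these 5 genes, and differences within the intervals remain possible. Over all members, 47 of 54 (87.0%) had an interval within log2 -1 to 1, where 68.4% of all genes did.

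**Figure D4:**
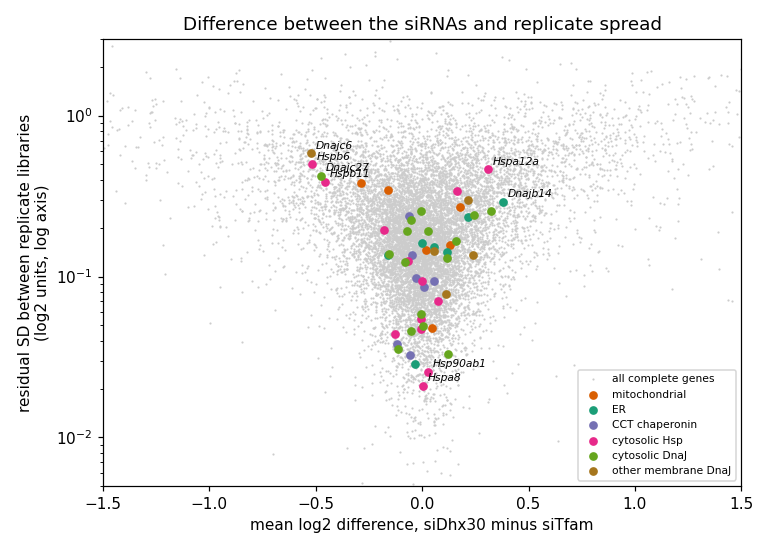
Mean log2 difference siDhx30 minus siTfam (horizontal axis) and residual SD between replicate libraries (vertical axis, log scale) for all complete genes in grey and chaperone genes coloured by class. The members furthest from 0 also have wide spread, such as Dnajc6 and Hspb6, while Hspa8 and Hsp90ab1 lie at the narrow end; a few grey genes lie outside the frame.

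Replicate spread had a lower median over chaperone genes than over all genes. The residual SD, the pooled spread of replicates within each siRNA, had a median of 0.14 over the 54 members and 0.20 over all genes, and 37 of 54 members lay under the all-gene median. Class medians were 0.094 for CCT, 0.093 for cytosolic Hsp, 0.15 for ER, 0.15 for cytosolic DnaJ, 0.14 for other membrane DnaJ and 0.21 for mitochondrial members. The narrowest were Hspa8 and Hsp90ab1, at 0.021 and 0.025, and the widest were Dnajc6 at 0.58, Hspb6 at 0.50 and Hspa12a at 0.46. Spread of a ratio depends on read depth, which is unknown here, so how far abundance sets this order was not tested.

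Promoter letters that the name rule did not use were read in RefSeq windows (GRCm38.p6), which 43 of 54 members had. A heat shock element is built from inverted GAA blocks. It was searched as GAANNTTC and as TTCNNGAA, each of which reads the same on both strands and which can overlap by 3 bases. GAANNTTC was found in 7.86% of all 32851 windows and in 10 of 59 member windows. These belong to 8 of 43 members: Hspe1, Dnaja1, Dnajb6, Hspb8, Hsph1, Hspb6, Cct2 and Dnajc27. TTCNNGAA was found in 8.52% of all windows and in 9 of 59 member windows. These belong to 7 of 43 members: Hspe1, Hsph1, Dnajb6, Dnajb4, Dnajc10, Cct5 and Cct6a. Of the 59 member windows 23.7% held either form, beside 15.1% of all windows. Overlapping windows of Hsph1 and of Dnajb6 hold the same sites, which were thus counted more than once. The ER stress element, CCAAT and CCACG with 9 unspecified bases between them, searched on both strands, was found in 0.119% of all windows and for 2 members, Hspa5 at positions -65 to -47 and Hsp90b1 at -212 to -194 and at -107 to -89 from the start site. TGATGNAA, on both strands, was found in 3.97% of all windows and for 1 member, Hspa14. A match is only a run of letters, not evidence of binding.

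**Figure D5:**
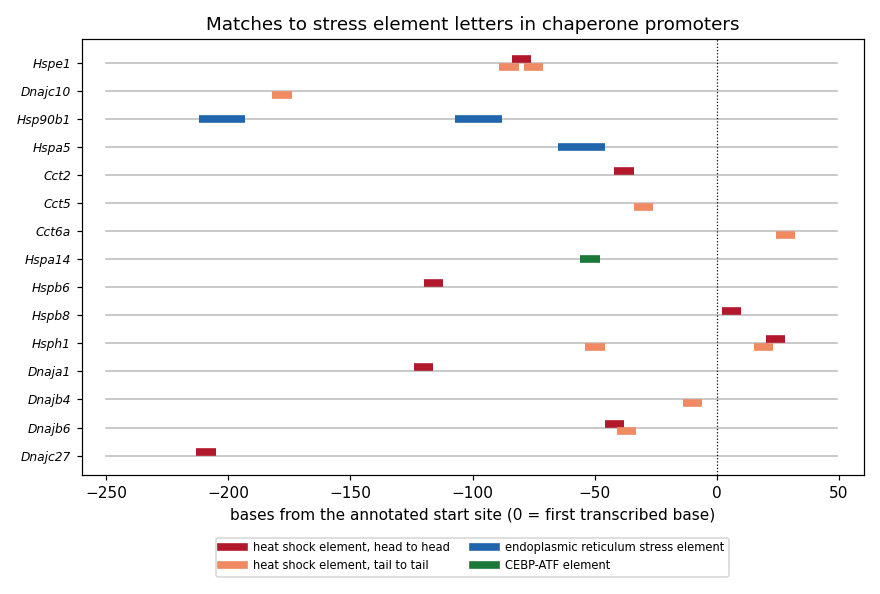
Positions of matches to 4 stress element letter patterns (coloured bars) in RefSeq promoter windows of the 15 chaperone genes with a match, from 250 bases before to 50 after the start site (dotted line). For genes with several windows the one with the lowest coordinate is drawn; Hspe1 and Hsph1 hold 3 heat shock element matches each.

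The 12 members with heat shock element letters had a median log2 ratio of -0.055 in siDhx30 and 0.081 in siTfam. The 31 members whose windows lacked them had medians of -0.011 and 0.038. Values in the first set ran from -0.27 to 0.55 in siDhx30 and from -0.20 to 0.41 in siTfam, inside the range of the second set in both comparisons.

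Genes that work with these chaperones, taken from 4 lists outside the name rule, also gave 0 calls after limma adjustment in each comparison. Their counts on 1 side of NC stand beside 32.1% of all genes above and 34.9% below in both siDhx30 libraries, and 32% above and 34.4% below in both siTfam libraries. Among 11 measured mitochondrial partners and proteases, 2 were above and 4 below NC in both siDhx30 libraries, and 3 above and 4 below in both siTfam libraries. The unfoldase Clpx had a mean of -0.24 in siDhx30 and -0.21 in siTfam, and its protease Clpp -0.12 and -0.37. Hscb averaged -0.090 in siDhx30 and 0.38 in siTfam, and Grpel2 averaged 0.16 and 0.21. The list medians were -0.090 in siDhx30 and -0.018 in siTfam. Of 20 measured ER folding and unfolded protein response genes, 5 were above and 6 below NC in both siDhx30 libraries, and 7 above and 6 below in both siTfam libraries. The ubiquitin ligase Syvn1 had a mean of -0.49 (SE 0.20) in siDhx30 and -0.50 (SE 0.20) in siTfam, and the transcription factor Xbp1 -0.19 and -0.41 (SE 0.19 each), none passing. Above NC on average were Edem1, at 0.20 and 0.081 (SE 0.18 each), and Atf6, at 0.42 and 0.27 (SE 0.49 each), also not passing. The list medians were -0.0044 in siDhx30 and -0.022 in siTfam.

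Of 15 measured heat shock factors and co-chaperones, 3 were above and 8 below NC in both siDhx30 libraries, and 3 above and 7 below in both siTfam libraries, beside the same shares of all genes (32.1% and 34.9%, then 32% and 34.4%), with medians of -0.16 and -0.066. Bag2 and Bag4, Hsp70 exchange factors of the Bag family, had the lowest means of the list for both siRNAs, whereas Bag6 averaged -0.16 in siDhx30 and -0.17 in siTfam. Bag2 lay at -1.20 and -0.34 in siDhx30, with -1.38 and -1.21 in siTfam, with siDhx30 replicate 2 nearest to NC. Bag4 lay at -0.55 and -0.44 in siDhx30, with -0.55 and -0.67 in siTfam. At an unadjusted p under 0.05 these were the 2 of 15 below NC in siTfam, where 3.08% of all genes were, and neither passed (limma adjusted p = 0.783 for Bag2 and 0.737 for Bag4). In siDhx30 the unadjusted p were 0.142 for Bag2 and 0.0584 for Bag4. Of 7 measured CCT partners, the ring subunit Tcp1 included, 4 were above and 1 below NC in both siDhx30 libraries. In both siTfam libraries 5 were above and 0 below, and the list medians were 0.050 in siDhx30 and 0.21 in siTfam. The prefoldin subunit Vbp1 had a mean of 0.33 in siDhx30 and 0.34 in siTfam (SE 0.21 each). In the direct comparison the list medians, siDhx30 minus siTfam, were -0.037 for mitochondrial partners, 0.024 for ER genes, 0.0067 for co-chaperones and -0.12 for CCT partners.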

How the data were processed

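Per the file headers, the deposited values are log2 fold changes, 1 for each gene in each siRNA library. Reads were handled with HISAT2, featureCounts, bcl2fastq and DESeq2 on GRCm38, per the submitters' processing notes; the sources used here name neither settings nor strand use. The depth per library is unknown, and 0 value columns were left unused. Signs were turned to siRNA over NC. Names were matched to GENCODE M21 (12660 of 12930).

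The 12088 complete genes were fitted with limma 3.58.1 in R 4.3.3, with 1 coefficient per group and NC entered as zeros, which leaves 2 residual degrees of freedom and assumes that NC varies like the siRNA libraries. The eBayes step used robust=TRUE. The 3 comparisons used Benjamini-Hochberg adjustment over all complete genes at 0.05. The fit was tested on simulated data for bias of its estimates and for its rate of small p-values without a change. Power to call a real change was not part of that check. Partner examples were taken mainly from those of smallest p in each list and comparison, and not all of these were named. Members named were a set list and the 5 highest and 5 lowest per comparison with both replicates on one side. Other members were added after their values were seen. Members and lists were chosen with earlier results of these data known. Alternatives left out each library, kept incomplete genes, centred libraries, removed length and GC trends, used robust=FALSE or blocked on the replicate number. Tables came from Python 3.11.15 with pandas 2.3.3 and numpy 2.4.6, and figures from matplotlib 3.10.9.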

Additional observations from a re-analysis of the deposited data

How the results depend on the processing

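Under every alternative that kept all siRNA libraries, limma called 0 genes and 0 chaperone members, and no named member came past the threshold. The main fit had already called 0 genes. Its smallest limma adjusted p over all genes was 0.298 in siDhx30, 0.285 in siTfam and 0.999 between the siRNAs. The 0 counts alone therefore do not show that the results are stable. Removing length and GC trends gave medians of -0.097 for cytosolic and 0.022 for CCT members in siDhx30 against NC, -0.074 for mitochondrial and 0.13 for ER members in siTfam against NC, and -0.019 for ER members between the siRNAs. That setting kept only protein-coding genes. Cct6a, annotated as a processed transcript, was thus not in its CCT median, which is not over the same genes as the main one. Centring each library gave -0.046 for cytosolic and 0.028 for CCT members in siDhx30 against NC. Hspa4 in siTfam against NC was 0.0064 with centring and 0.0040 with trends removed, and Cct2 was -0.039 with trends removed. The cause was not tested.

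Leaving out 1 siRNA library at a time gave medians in siDhx30 against NC of -0.022 to 0.041 for all chaperone, -0.075 to 0.015 for mitochondrial, -0.056 to -0.031 for cytosolic, -0.0084 to 0.082 for ER and 0.018 to 0.041 for CCT chaperonin members. In siTfam against NC they were -0.029 to 0.050 for all chaperone, -0.10 to -0.049 for mitochondrial, -0.053 to 0.051 for cytosolic, 0.0018 to 0.095 for ER and -0.032 to 0.17 for CCT chaperonin members. Between the siRNAs they were -0.049 to 0.045 for all chaperone, -0.018 to 0.12 for mitochondrial, -0.086 to 0.024 for cytosolic, -0.025 to 0.16 for ER and -0.13 to 0.065 for CCT chaperonin members. Some members near 0 changed sign: in siDhx30 against NC, Cct2 from -0.23 to 0.14, Hspe1 from -0.24 to 0.045 and Hspa4 from -0.036 to 0.013. Likewise, in siTfam against NC, Cct2 from -0.13 to 0.17, Cct8 from -0.032 to 0.24, Dnaja1 from -0.019 to 0.072, Hsp90aa1 from -0.16 to 0.0090, Hspa4 from -0.053 to 0.045 and Hspa5 from -0.31 to 0.0018. And in siDhx30 against siTfam, Cct2 from -0.25 to 0.12, Cct8 from -0.18 to 0.089, Dnaja3 from -0.023 to 0.29, Hsp90aa1 from -0.086 to 0.080, Hsp90b1 from -0.025 to 0.26, Hspa4 from -0.057 to 0.041, Hspa5 from -0.16 to 0.16, Hspa8 from -0.019 to 0.023, Hspa9 from -0.0019 to 0.093 and Hspe1 from -0.12 to 0.16. A lone remaining library was assumed to vary like the others.

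The siDhx30 and siTfam libraries share replicate numbers, and nothing in the labels says that these mark pairs. Same-numbered libraries deviated together with a correlation of 0.25 across genes, which are not independent. With the replicate block, the direct comparison gave 0 genes and 0 members. Unknown depth, the inferred sign and the single NC library limit all values against NC.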
